A study of Mus musculus with 6 samples.

Results

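Sphingosine-1-phosphate (S1P) is a lipid signal made from the sphingosine backbone of membrane sphingolipids, and 10 mouse genes of its receptors and its metabolism were followed: S1pr1, S1pr2, S1pr3, S1pr4, S1pr5, Sphk1, Sphk2, Sgpl1, Sgpp1 and Spns2. They were taken by gene symbol from a table of 35688 gene rows, where each symbol stood once. A gene was tested if its deposited abundance, a TPM value corrected for transcript length, averaged 1 or more across all 6 libraries, which 7 of the 10 members and 12257 genes in all did. S1pr3, S1pr4 and S1pr5 did not. The family was proposed with results of the only contrast of the study known, so the values of its members, their calls included, are a description and are not independent evidence about the family.

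The cells were m1102, a mouse line of ovarian surface epithelium, the thin covering of the ovary that opens at each ovulation. In one group, 3 libraries came from m1102 cells given 10 ng/mL TGFB1 for 4 days, and in the other, 3 libraries came from untreated m1102 cells. TGFB1 is a cytokine known for driving matrix production and epithelial-mesenchymal transition. Both groups grew in alpha-minimum essential medium with 4% FBS, 0.01 mg/mL of the supplement ITSS and 2 ug/mL EGF, so the untreated cells were also exposed to serum and EGF. The poly(A)-selected libraries were made from 250 ng of total RNA and no allele, transgene or second line is named in the labels. The groups share 1 cell line, and the labels do not say whether the samples were separately treated cultures, so the replicate spread behind each p-value may be technical.

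As background, the sphingosine kinases Sphk1 and Sphk2 phosphorylate sphingosine to S1P, the transporter Spns2 carries S1P out of the cell, the phosphatase Sgpp1 turns it back into sphingosine, and the lyase Sgpl1 breaks it down for good. Outside the cell S1P acts on G protein-coupled receptors. S1pr1 couples to Gi and is best known for lymphocyte exit from lymph nodes and for vessel stability, and S1pr2 couples also to G12/13 and is known for restraining cell migration.

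The 5 receptors are related proteins, so their transcripts could in principle be confused in counting. The stretches shown here are the 60 coding bases at which the 5 mouse receptor genes were most alike, read from the GENCODE M21 transcripts, with capitals at each base that differs from S1pr1.
S1pr1: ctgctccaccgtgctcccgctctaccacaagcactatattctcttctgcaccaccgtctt
S1pr2: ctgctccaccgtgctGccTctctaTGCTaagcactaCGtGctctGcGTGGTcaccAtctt
S1pr3: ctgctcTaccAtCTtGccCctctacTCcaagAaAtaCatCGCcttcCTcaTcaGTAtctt
S1pr4: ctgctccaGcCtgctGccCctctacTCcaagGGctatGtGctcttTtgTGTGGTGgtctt
S1pr5: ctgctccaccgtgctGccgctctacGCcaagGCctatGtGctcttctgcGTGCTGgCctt
Even there, of 60 bases, 44 in S1pr2, 40 in S1pr3, 42 in S1pr4 and 46 in S1pr5 matched S1pr1, and the longest run without a difference was 15 bases, in S1pr2 and S1pr5. No run of 31 coding bases of S1pr1 occurred in another receptor (0 for each of the 4). Over whole transcripts, 0.365% of the 31-base runs of S1pr1 and 2.03% of those of S1pr2 occurred in any other annotated gene. The share was highest for Sphk2, at 19.7%. Sphk2 also overlaps Dbp and Rpl18 on the opposite strand, so its level is uncertain where reads were shared.

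S1pr1 was the member that differed most. It had 47.4, 28.9 and 26.5 TPM in the TGFB1 libraries, against 0.503, 0.526 and 0.588 TPM in the untreated libraries. The groups did not overlap, and every TGFB1 library lay far above every untreated one. The means were 34.3 ± 11.4 TPM with TGFB1 and 0.539 ± 0.044 TPM in untreated cells (SD, n = 3 each here and throughout), a 63.6-fold ratio. On the log2(TPM + 1) scale, which understates changes of low genes, the log2 fold change was 4.47 (SE 0.21, 95% interval 3.97 to 4.97; adjusted p = 0.00011, limma with Benjamini-Hochberg adjustment). Among the 12257 tested genes this was the rank 4 log2 fold change counted from the top. With TGFB1 the S1pr1 level was above that of 62.0% of tested genes, and in untreated cells above that of 0.636%. S1pr1 met the mean of 1 TPM through the TGFB1 libraries only. Its low place in untreated cells follows from that filter, which left out most genes at such levels.

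TGFB1 replicate 1 had the highest S1pr1 value, 1.71 times the mean of the other two TGFB1 libraries. Without it the ratio of means was 51.4 and the log2 fold change 4.22. The pseudocount sets the size on the log scale: with 0.1 in place of 1 the log2 fold change was 5.70, and with 5 it was 2.79. S1pr1 lies on chromosome 3 (GRCm38 chr3:115710433-115715072, minus strand) and overlaps no other annotated gene.

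**Figure D1:**
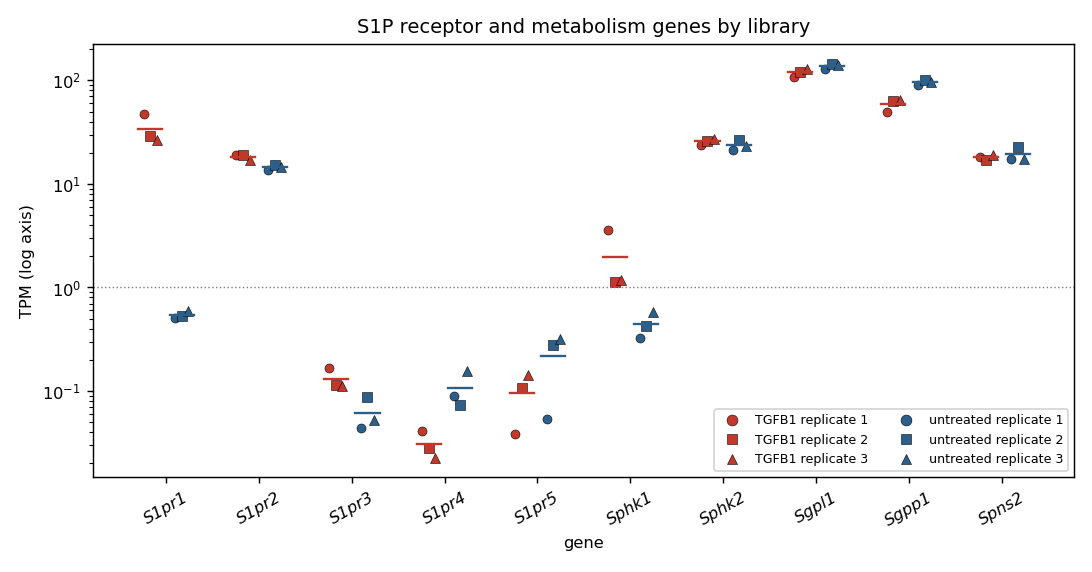
TPM of the 10 S1P genes (log axis) in the 3 TGFB1 libraries (red) and the 3 untreated libraries (blue), with a symbol for each replicate number, a short line at each group mean and a dotted line at 1 TPM. S1pr1 sits at 26.5 to 47.4 TPM with TGFB1 and at 0.503 to 0.588 TPM in untreated cells, while Sphk2 and Spns2 overlap between the groups.

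S1pr2, the receptor that couples also to G12/13, was the main receptor transcript of the untreated cells. Its levels were 19.0, 18.9 and 17.2 TPM with TGFB1, against 13.7, 15.3 and 14.7 TPM in untreated cells. The groups did not overlap, but the gap between the lowest TGFB1 library and the highest untreated library was small beside that of S1pr1. S1pr2 was called higher, with a log2 fold change of 0.31 (SE 0.0768, adjusted p = 0.0238). The call was lost without untreated replicate 1 (adjusted p = 0.071), without untreated replicate 3 (0.0745) and without TGFB1 replicate 2 (0.0795). Fewer genes of the whole table were called higher in those fits as well. S1pr2 lies on chromosome 9 (GRCm38 chr9:20962361-20976781, minus strand).

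The remaining receptors were near the bottom of the scale in both groups. S1pr3, which couples to Gq, Gi and G12/13, had 0.167, 0.114 and 0.111 TPM with TGFB1, against 0.0438, 0.0878 and 0.0524 TPM in untreated cells. S1pr4, a receptor known mainly from leukocytes, had 0.0412, 0.028 and 0.0227 TPM with TGFB1, against 0.09, 0.0737 and 0.155 TPM in untreated cells. S1pr5, known from natural killer cells and oligodendrocytes, had 0.0387, 0.106 and 0.144 TPM with TGFB1, against 0.0541, 0.278 and 0.315 TPM in untreated cells. The TGFB1 libraries were all above the untreated ones for S1pr3 and all below them for S1pr4, and the groups overlapped for S1pr5. All 3 were below 1 TPM in every library, where the deposited values carry no read counts to set a precision, and in a fit with no filter none was called (adjusted p 0.16, 0.137 and 0.417 for S1pr3, S1pr4 and S1pr5).

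Because TPM is corrected for transcript length, the receptors can be compared with one another within a library. S1pr1 made up 71.1%, 60.2% and 60.2% of the summed receptor TPM in the TGFB1 libraries, against 3.49%, 3.22% and 3.71% in the untreated libraries. S1pr2 made up 28.5%, 39.3% and 39.1% with TGFB1, against 95.2%, 94.1% and 93.0% in untreated cells. The order of both receptors was thus opposite in the 2 groups in every library. The summed receptor level was 66.7, 48.0 and 44.0 TPM with TGFB1, against 14.4, 16.3 and 15.8 TPM in untreated cells. S1pr1 stood at 1.85 ± 0.551 times the S1pr2 level with TGFB1, and at 0.037 ± 0.00281 times in untreated cells. The lower S1pr2 share with TGFB1 went with a higher, not a lower, S1pr2 level.

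**Figure D2:**
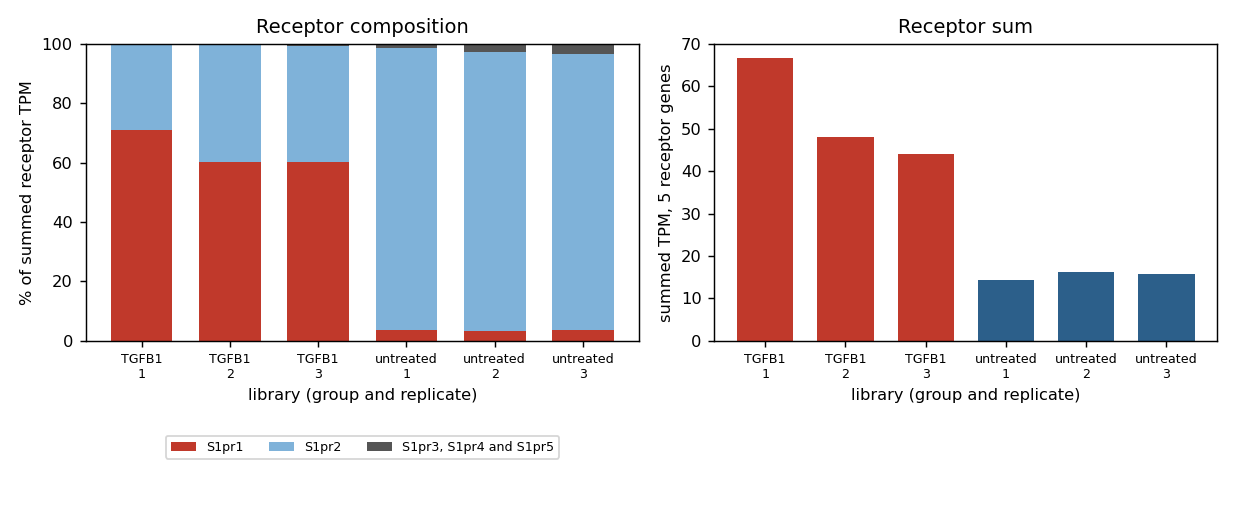
Left, share of each receptor gene in the summed TPM of the 5 receptor genes (%), and right, that summed TPM, each by library, with TGFB1 libraries before untreated ones. S1pr1 holds 60.2% to 71.1% of the sum with TGFB1 and 3.22% to 3.71% in untreated cells, where S1pr2 holds 93.0% to 95.2%.

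Of the kinase genes, Sphk1 was low and Sphk2 abundant in both groups. Sphk1, the mainly cytosolic kinase, had 3.62, 1.12 and 1.18 TPM with TGFB1, against 0.328, 0.422 and 0.583 TPM in untreated cells. All TGFB1 libraries were above all untreated ones, but TGFB1 replicate 1 was at 3.14 times the mean of the other two. The ratio of means was 4.44 with all libraries and 2.59 without that one. In the fit Sphk1 was not called (log2 fold change 0.95, SE 0.318, 95% interval 0.19 to 1.70, adjusted p = 0.0634). It was called without TGFB1 replicate 1 (0.58, adjusted p = 0.0393) and with a pseudocount of 0.1 (1.75, adjusted p = 0.0438). Like S1pr1 it met the mean of 1 TPM through the TGFB1 libraries only, and here it needed TGFB1 replicate 1. The filter was set on all 6 libraries, so Sphk1 stayed tested without that library, though its mean over the others was below 1 TPM. The call without TGFB1 replicate 1 is thus not independent of that library.

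Sphk2, the kinase also found in nucleus and mitochondria, had 23.9, 26.1 and 27.3 TPM with TGFB1, against 21.3, 26.4 and 23.2 TPM in untreated cells. The groups overlapped, and the log2 fold change was 0.12 with a 95% interval of -0.10 to 0.35. Sphk2 was by far the more abundant kinase transcript: Sphk1 was 13.2%, 4.12% and 4.14% of the summed kinase TPM with TGFB1, against 1.51%, 1.58% and 2.45% in untreated cells. The summed kinase level was 27.7 ± 0.624 TPM with TGFB1 and 24.1 ± 2.56 TPM in untreated cells.

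Of the genes that remove S1P, Sgpp1 was called lower. The phosphatase Sgpp1 had 49.3, 63.4 and 64.8 TPM with TGFB1, against 90.0, 102 and 97.0 TPM in untreated cells. The groups did not overlap, and TGFB1 replicate 1 was the lowest library. The means were 59.2 ± 8.59 TPM with TGFB1 and 96.5 ± 6.18 TPM in untreated cells, a log2 fold change of -0.70 (SE 0.115, 95% interval -0.98 to -0.43, adjusted p = 0.00567). With each library left out in turn the log2 fold change stayed between -0.77 and -0.58, with adjusted p up to 0.0281. Sgpp1 lies on chromosome 12 (GRCm38 chr12:75714249-75735729, minus strand).

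The lyase Sgpl1 was the most abundant member in both groups, at 109, 121 and 130 TPM with TGFB1, against 128, 145 and 142 TPM in untreated cells. Its groups overlapped only at the edge, the highest TGFB1 library lying above the lowest untreated one, and it was not called (log2 fold change -0.20, adjusted p = 0.113). The ratio of Sgpl1 to Sgpp1 was 2.22, 1.91 and 2.00 with TGFB1, against 1.42, 1.41 and 1.46 in untreated cells. The transporter Spns2 had 18.3, 17.2 and 19.0 TPM with TGFB1, against 17.6, 22.9 and 17.5 TPM in untreated cells. The Spns2 groups overlapped, with a log2 fold change of -0.08 (95% interval -0.35 to 0.19), and the high untreated value was that of replicate 2.

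Ordered by level with TGFB1, Sgpl1 and Sgpp1 came first, then S1pr1 and Sphk2, whose ranges overlapped, then S1pr2 and Spns2, which overlapped too, then Sphk1 and the 3 low receptors. In untreated cells the order was Sgpl1, Sgpp1, Sphk2 with Spns2 overlapping it, S1pr2, and then S1pr1, whose range overlapped that of Sphk1. Between the groups, S1pr1 was at rank 3 with TGFB1 and at rank 6 in untreated cells, and the transcripts of Sgpl1 and Sgpp1 kept the first ranks.

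In all, 2 of the 7 tested members were called higher (S1pr1 and S1pr2), 1 was called lower (Sgpp1), and 4 were not called. Of all tested genes 15.8% were called higher, 14.6% lower and 30.4% in either direction, and in 49.8% the groups did not overlap. Without TGFB1 replicate 1, 3 members were called higher and 1 lower. The added one was Sphk1, which passed the filter only through the library left out. In that fit 2024 of all tested genes were called higher, in place of 1937. Without TGFB1 replicate 2, untreated replicate 1 or untreated replicate 3, 1 was called higher, S1pr1. In these fits 1315, 1181 and 1113 of all tested genes were called higher, in place of 1937, so calls were lost over the whole table too.

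**Figure D3:**
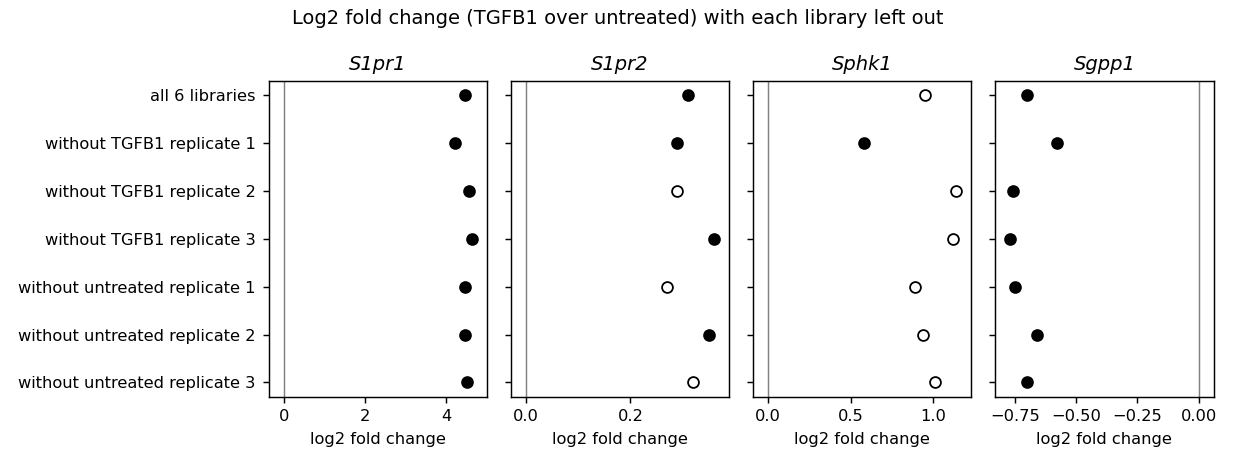
Log2 fold change of S1pr1, S1pr2, Sphk1 and Sgpp1 (TGFB1 over untreated, log2(TPM + 1) scale, a separate horizontal axis per gene) with all 6 libraries and with each library left out, filled where the adjusted p was under 0.05. S1pr1 stays between 4.22 and 4.63 and Sgpp1 between -0.77 and -0.58, always filled, and S1pr2 loses its call in 3 of the 6 cases. Sphk1 is filled only without TGFB1 replicate 1, where its mean is below 1 TPM and it is tested because the filter used all 6 libraries.

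The libraries as a whole were alike in scale but not in distance. Between 17758 and 19288 genes were above 0 TPM in the TGFB1 libraries and between 18444 and 18721 in the untreated libraries, and the read depth is unknown. On the first principal component, with 70.7% of the variance, TGFB1 replicate 1 scored 46.6 and replicates 2 and 3 scored 20.2 and 18.1, while untreated libraries lay between -29.8 and -27.1. Of 7 tested genes of a TGFB1 response list, 5 rose and 1 fell. The highest S1pr1 and Sphk1 values thus came from the library farthest from the untreated ones, and the part of that library's position in the Sphk1 values was not tested beyond leaving it out.

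S1pr1 is a known gene of endothelial cells and lymphocytes, so markers of other cells were set beside it. Of 10 endothelial markers, 8 were below 1 TPM in every library and 2 were tested, of which limma called 0, with 0 at an unadjusted p under 0.05. Pecam1, an adhesion molecule of endothelial cells, had 1.12, 1.56 and 1.60 TPM with TGFB1, against 0.926, 1.11 and 0.927 TPM in untreated cells, and was not called. Its untreated mean was 0.989 TPM, so it met the mean of 1 TPM through the TGFB1 libraries. Emcn had 0.0767, 0.418 and 0.405 TPM with TGFB1, against 0.0535, 0 and 0 TPM in untreated cells, and Cdh5 had 0.446, 0.177 and 0.15 TPM with TGFB1, against 0.0164, 0.0986 and 0.0147 TPM in untreated cells. For these 3 markers every TGFB1 library was above every untreated one, at levels far below that of S1pr1. Vwf went the other way, also without overlap, at 0.047, 0.0205 and 0.0483 TPM with TGFB1, against 0.0909, 0.0605 and 0.151 TPM in untreated cells. The groups did not overlap in 49.8% of all tested genes, a share that leaves out genes below the filter, such as Emcn, Cdh5 and Vwf. Cldn5 was listed at 0 in all libraries and Kdr at 0 in all TGFB1 libraries. The summed endothelial level was 5.38 to 5.81 TPM with TGFB1, against 3.66 to 4.53 TPM in untreated cells. The largest part of it was Egfl7, the other tested marker, which overlapped between the groups and was not called. Egfl7 had 3.32 ± 0.379 TPM with TGFB1 and 2.87 ± 0.495 TPM in untreated cells. Of 10 leukocyte markers, 9 were below 1 TPM in every library and 0 were tested, with a summed level of 1.73 to 2.23 TPM with TGFB1 and 1.81 to 2.11 TPM in untreated cells. S1pr1 alone, at 26.5 to 47.4 TPM with TGFB1, was above both sums. A sum of chosen markers sets no bound on the level of another gene, and the part of such cells in the S1pr1 values was not tested.

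Of 6 pericyte and smooth muscle markers, Mcam, an adhesion molecule also made by other cells, rose to 181, 105 and 93.8 TPM with TGFB1, against 25.4, 19.8 and 21.6 TPM in untreated cells. Des, the muscle intermediate filament gene, had 1.11, 3.15 and 2.26 TPM with TGFB1, against 0.724, 0.926 and 0.871 TPM in untreated cells, and was not called by limma (log2 fold change 0.73, adjusted p = 0.0693). Both Mcam and Des were higher at an unadjusted p under 0.05 in that fit. Des, with an untreated mean of 0.84 TPM, met the mean of 1 TPM through the TGFB1 libraries only, so its direction is no separate support. Cspg4, below the filter, had 0.437, 0.102 and 0.0609 TPM with TGFB1, against 0.0261, 0 and 0.0364 TPM in untreated cells, also without overlap. Rgs5, Myh11 and Notch3 stayed below 0.1 TPM in every library, and the part of these markers in the S1P values was not tested. The summed level of the list was 96.2 to 183 TPM with TGFB1 and 20.8 to 26.1 TPM in untreated cells, nearly all of it Mcam. Of 4 tested fibroblast markers limma called 2 lower, Dcn and Thy1, and 0 higher (0 higher also at an unadjusted p under 0.05). The summed level, mostly Dcn, was 843 to 878 TPM with TGFB1 and 1683 to 1916 TPM in untreated cells. Pdgfra, not called, was higher without overlap (7.65 TPM with TGFB1, 6.34 TPM untreated). Below the filter, Pdgfrb had 1.05, 0.199 and 0.191 TPM with TGFB1, against 0.012, 0.0103 and 0 TPM in untreated cells. Lum, also below it, went the other way, at 0, 0.027 and 0.105 TPM with TGFB1, against 0.249, 0.261 and 0.272 TPM in untreated cells. Of 3 tested granulosa markers 2 rose and 1 fell, and Fshr was at 0 throughout.

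The labelled cell type was carried by part of its markers. Wt1, a transcription factor of the coelomic epithelium, had 103, 164 and 164 TPM with TGFB1, against 194, 176 and 172 TPM in untreated cells, and was not called. Krt7, Krt18, Upk3b and Gpm6a were expressed and fell, which is 4 of the 6 tested markers of that epithelium and of mesothelium. The Upk3b call was lost with no filter (adjusted p = 0.0994). Msln, at 408 ± 25.6 TPM with TGFB1 and 508 ± 62.4 TPM in untreated cells, was not called. Krt19, below the filter, had 0.246 ± 0.213 TPM with TGFB1 and 1.65 ± 0.334 TPM in untreated cells. Krt8, Cdh1 and Lhx9 were below 1 TPM in every library. Of the 31-base runs of Krt8, 36.0% occur in another gene, so its low value is uncertain. The summed marker level was 753 to 1079 TPM with TGFB1, against 1602 to 1705 TPM in untreated cells. In bulk RNA, fewer cells of a kind and less RNA per cell cannot be told apart, and the part of this shift in the S1P values was not tested.

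The other genes of the pathway were read from 7 lists of 100 genes, of which 72 were tested. Of these 8 rose and 20 fell, so 38.9% were called, beside 30.4% of all tested genes (15.8% higher and 14.6% lower). Their median log2 fold change was -0.12, beside 0.02 for all tested genes. Without TGFB1 replicate 1, 11 rose and 20 fell, without TGFB1 replicate 2, 5 and 18, and without TGFB1 replicate 3, 4 and 18. Without untreated replicate 1, 4 rose and 18 fell, without untreated replicate 2, 4 and 16, and without untreated replicate 3, 3 and 14. Over all tested genes the fits with a library left out called 1113 to 2024 higher and 917 to 1926 lower. When mitochondrial genes and the 20 most abundant ones were kept out of the scaling, 14 rose and 20 fell. The share of calls that were higher was then 41.2% in place of 28.6%, and over all tested genes 62.7% in place of 52.0%.

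Ceramide synthesis, which supplies the backbone, had 1 gene higher and 5 lower of 13 tested (median -0.10). Degs1, the desaturase that makes ceramide from dihydroceramide, fell to 307, 335 and 317 TPM with TGFB1, against 651, 778 and 782 TPM in untreated cells (log2 fold change -1.20, SE 0.0841, adjusted p = 0.000353). No library of one group came near the other. The ceramide synthase gene Cers4 fell to 33.6 ± 8.50 TPM with TGFB1, against 78.7 ± 4.77 TPM in untreated cells (-1.24). Sptssa, a small subunit of serine palmitoyltransferase, fell by 0.49 on the log2 scale. Cers1 fell by the same amount, but 42.2% of its 31-base runs occur in another gene and its value is uncertain. The exception was Cers6, a ceramide synthase gene that rose to 26.0 ± 3.57 TPM with TGFB1, against 19.7 ± 1.20 TPM in untreated cells, and that is named here as the single higher gene after its values were seen; 0 genes of this list were called higher under 7 of the 14 alternative settings.

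Among genes that release sphingosine or turn ceramide over, 3 fell and 0 rose of 12 tested by limma (median -0.20). At an unadjusted p under 0.05 in the same fit, 5 were lower and 2 higher. Smpdl3b, a membrane-anchored relative of acid sphingomyelinase, fell to 17.5 ± 2.93 TPM with TGFB1, against 28.0 ± 1.75 TPM in untreated cells (-0.66). Cerk, the kinase that makes ceramide-1-phosphate, fell to 19.9 ± 3.10 TPM with TGFB1, against 30.8 ± 1.68 TPM in untreated cells (-0.62). Asah1, the acid ceramidase that frees sphingosine in lysosomes, fell to 141 ± 7.01 TPM with TGFB1, against 175 ± 12.9 TPM in untreated cells (-0.30, adjusted p = 0.0225). Asah1 lost its call when TGFB1 replicate 3, untreated replicate 2 or untreated replicate 3 was left out, with adjusted p up to 0.0768.

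In glycosphingolipid metabolism 2 genes rose and 5 fell of 15 tested (median -0.15). Psap, the precursor of the saposins that present sphingolipids to lysosomal enzymes, fell to 1126, 1582 and 1619 TPM with TGFB1, against 3732, 4409 and 4130 TPM in untreated cells (-1.52, adjusted p = 0.00101). The 3 TGFB1 libraries were all below the untreated ones by a wide margin. Gm2a, the activator protein for ganglioside breakdown, fell to 63.3 ± 17.1 TPM with TGFB1, against 133 ± 15.6 TPM in untreated cells (-1.10). Gla, the alpha-galactosidase gene, fell by 0.79 on the log2 scale, and B4galt5, a lactosylceramide synthase gene, by 0.72. The count of higher genes in this list was 4 without TGFB1 replicate 1, 1 without untreated replicate 1 or 2, and 0 without TGFB1 replicate 3 or untreated replicate 3.

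Of 8 tested phosphatases, aldehyde-clearing enzymes, carriers and exporters, 1 fell and 0 rose by limma (median -0.19). At an unadjusted p under 0.05 in the same fit, 1 was lower and 1 higher. Plpp1, a surface lipid phosphatase that acts on S1P and related lipids, fell to 27.9, 34.9 and 32.3 TPM with TGFB1, against 70.5, 71.1 and 69.9 TPM in untreated cells (-1.14, adjusted p = 0.000492), with 24.2% of its 31-base runs shared with other genes. Its relatives were not called, with log2 fold changes of 0.00 for Plpp2 and 0.22 for Plpp3. The others were not called either, at -0.18 for Aldh3a2, -0.33 for Mfsd2b, -0.75 for Abca1, 0.14 for Abcc1 and -0.20 for Abcg2. Without TGFB1 replicate 1 the log2 fold change of Abca1 was -0.39 and that of Abcc1 0.06, and without untreated replicate 3 that of Abcg2 was -0.12, none of them called. Sgpp2, the second S1P phosphatase gene, was under the filter at 0.547, 0.528 and 0.514 TPM with TGFB1, against 0.101, 0.0574 and 0.0747 TPM in untreated cells. The groups were far apart for their spread, and in the fit with no filter, where 12.4% of genes were called, Sgpp2 was called higher (0.51, adjusted p = 0.00278). Sgpp1 stayed the more abundant phosphatase transcript by far in both groups.

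Downstream of the receptors, 3 of 14 tested genes of G proteins and their effectors rose and 2 fell (median -0.02). Gnai2, the Gi subunit gene, rose to 375 ± 5.62 TPM with TGFB1, against 275 ± 13.4 TPM in untreated cells (0.45, adjusted p = 0.00222). Gna12, of the G12/13 class, rose to 84.1 ± 2.13 TPM with TGFB1, against 65.6 ± 4.70 TPM in untreated cells (0.36). Arhgef12, an exchange factor that G12/13 controls, fell to 38.1 ± 5.69 TPM with TGFB1, against 59.2 ± 6.50 TPM in untreated cells (-0.63). Gnai1, another Gi subunit gene, fell by 0.37 on the log2 scale, a call lost with no filter (adjusted p = 0.0541) and without untreated replicate 1 or 2 (adjusted p up to 0.0827).

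Of 8 tested genes of receptor desensitisation and S1pr1 regulation, 2 rose and 4 fell (median -0.14). Klf2, a transcription factor known to drive S1pr1 in T cells, fell to 15.0, 22.7 and 23.4 TPM with TGFB1, against 52.3, 52.2 and 48.5 TPM in untreated cells (-1.31, adjusted p = 0.00227). Klf2 and S1pr1 moved in opposite directions, with no overlap between groups for either. The groups did not overlap in 49.8% of all tested genes, and a link between Klf2 and S1pr1 was not tested. Stat3, reported to raise S1PR1 in human tumour cells, fell by 0.61 on the log2 scale, a call lost with no filter and in 4 of the 6 fits with a library left out (adjusted p up to 0.0975). Of the kinases that desensitise receptors, Grk6 rose to 41.0 ± 3.37 TPM with TGFB1, against 30.4 ± 1.62 TPM in untreated cells (0.42), and Grk5 fell to 7.08 ± 0.244 TPM with TGFB1, against 10.0 ± 0.873 TPM in untreated cells (-0.45, not called without untreated replicate 3, adjusted p = 0.0542). The higher count was 1 when any library other than TGFB1 replicate 1 was left out, and the lower count was 2 without TGFB1 replicate 2 and 1 without untreated replicate 3. Cd69, which removes S1PR1 from the surface of lymphocytes, was below 0.1 TPM in every library.

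Of the lysophosphatidic acid, cannabinoid and related lipid receptors and autotaxin (Enpp2), the enzyme that makes lysophosphatidic acid, 10 of 12 were below 1 TPM in every library. Lpar2 had 12.2 ± 2.04 TPM with TGFB1 and 15.6 ± 0.599 TPM in untreated cells (-0.35, adjusted p = 0.0749), and Lpar6 had 3.48 ± 0.309 TPM with TGFB1 and 2.81 ± 0.335 TPM in untreated cells (0.23, adjusted p = 0.191). Neither was called by limma, 1 being lower at an unadjusted p under 0.05.

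**Figure D4:**
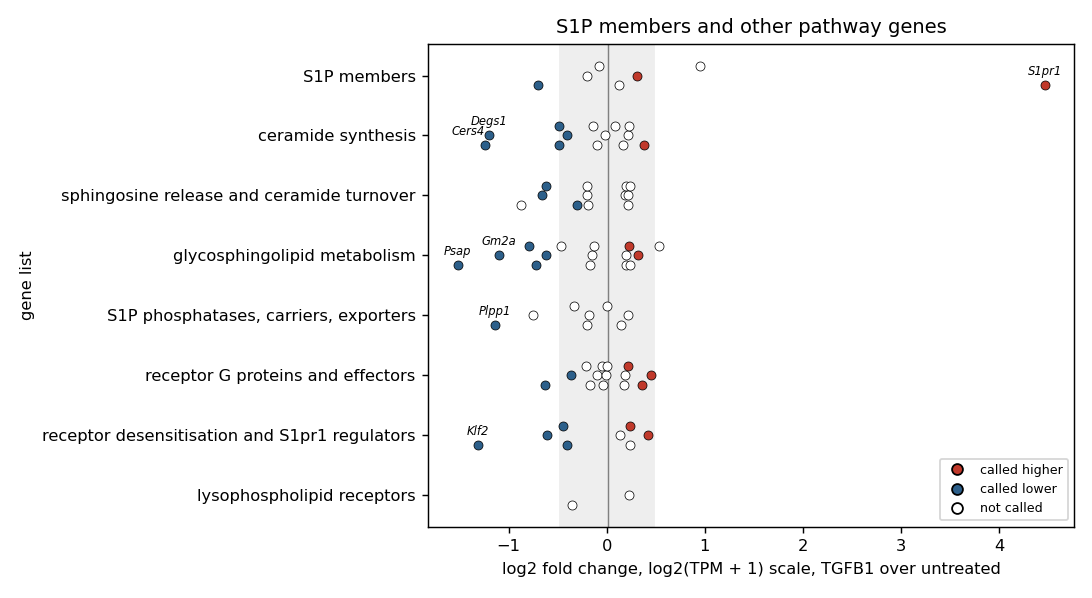
Log2 fold changes (TGFB1 over untreated, log2(TPM + 1) scale) of the 7 tested S1P members and of the tested genes of the 7 pathway lists, red where called higher, blue where called lower and open where not called, with a grey band from the 10th to the 90th percentile of all tested genes (-0.48 to 0.48). S1pr1, at 4.47, stands alone at the right, and the named genes on the left are Psap, Klf2, Cers4, Degs1, Plpp1 and Gm2a.

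The genes whose profile over the 6 libraries was nearest to that of S1pr1 were Col1a1, Ctla2a and Crispld2, with a root mean square difference on the log2 scale of 0.099, 0.099 and 0.314. Col1a1, a gene of 1 of the type I collagen chains, had 218, 139 and 126 TPM with TGFB1, against 6.16, 6.90 and 7.15 TPM in untreated cells. As for S1pr1, TGFB1 replicate 1 was highest and the groups were far apart. Col1a2, the other type I chain gene and a listed fibroblast marker, overlapped between the groups and was not called (log2 fold change 0.04). It had 145 ± 2.55 TPM with TGFB1 and 142 ± 15.4 TPM in untreated cells. Of the 31-base runs of Ctla2a, 37.8% occur in another gene, so its values are uncertain. This likeness is over 2 groups of 3 libraries and was sought by its size.

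Next to S1pr1 on chromosome 3, the nearest tested genes were Dph5, 173 kb away, and Rnpc3, 2080 kb away, and neither was called (log2 fold changes 0.39 and 0.15). Dph5 had 28.4, 14.4 and 16.2 TPM with TGFB1, against 15.1, 14.1 and 13.4 TPM in untreated cells, so only TGFB1 replicate 1 stood out. The neighbours of S1pr2, Dnmt1 at 2.47 kb and Mrpl4 at 26.0 kb, and those of Sgpp1, Wdr89 at 44.7 kb and Syne2 at 82.4 kb, were not called either.

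Promoters of 9 of the 10 members, all but S1pr1, from 250 bases before to 50 bases after the gene start, were taken from RefSeq (GRCm38.p6). The promoters of S1pr2 (chr9:20976744-20977043, minus strand) and Sgpp1 (chr12:75735680-75735979, minus strand) are shown because these were called in opposite directions, with capitals at a cAMP response element in S1pr2, starting 181 bases before the gene start, and at a CCAAT box in Sgpp1, starting 149 bases before it.
S1pr2: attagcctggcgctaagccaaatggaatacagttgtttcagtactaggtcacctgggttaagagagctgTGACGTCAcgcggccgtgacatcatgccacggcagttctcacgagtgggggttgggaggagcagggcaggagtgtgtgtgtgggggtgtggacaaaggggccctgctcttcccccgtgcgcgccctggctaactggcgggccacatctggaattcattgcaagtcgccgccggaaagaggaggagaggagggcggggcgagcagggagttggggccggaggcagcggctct
Sgpp1: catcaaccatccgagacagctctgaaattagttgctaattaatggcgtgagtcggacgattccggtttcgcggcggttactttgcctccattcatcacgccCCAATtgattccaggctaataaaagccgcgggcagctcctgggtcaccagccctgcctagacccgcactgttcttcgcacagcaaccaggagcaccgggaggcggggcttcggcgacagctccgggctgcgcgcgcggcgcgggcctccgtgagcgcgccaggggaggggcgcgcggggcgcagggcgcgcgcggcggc
The motifs were searched on both strands. The cAMP response element TGACGTCA was in 1.79% of 32851 promoters and, of the members, in S1pr2 and Sphk2. The CCAAT box was in 37.4% of promoters. The SMAD palindrome GTCTAGAC, in 0.213% of promoters, was in 0 of the searched member promoters. The SMAD half-site CAGAC, in 49.6% of promoters, was in a promoter of S1pr3, Sphk1, Sphk2 and Spns2. The AP-1 letters TGANTCA, in 7.81%, were in 2 of the 5 Sphk1 promoters and in no promoter of the other searched members. A match to letters in these windows is a description only.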

How the data were processed

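Poly(A)-selected RNA was measured in 6 libraries of the mouse line m1102, 3 with TGFB1 and 3 untreated, grouped by the sample labels. Per the submitters' processing notes, the tools included kallisto 0.44.0 and sleuth 0.30.0 and the build was GRCm38; roles, annotation and strand use are not stated there. The authors deposited a signal on the scale of TPM, one column per library: column totals run from 983434 to 1026702 and median ratios to the geometric mean of the libraries from 0.9905 to 1.013. These values are called TPM here. Without counts, the depth is unknown and intervals cover replicate spread only.

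The 12257 genes averaging 1 TPM or more were fitted on log2(TPM + 1) by limma 3.58.1 (eBayes with trend; R 4.3.3). P-values are two-sided, adjusted by Benjamini-Hochberg over all tested genes, and called under 0.05. Coordinates, coding bases and 31-base runs came from GENCODE M21 on GRCm38 (Python 3.11.15), where 587 of the 35688 row IDs were absent. The steps were tested on simulated data.

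The members, the 7 pathway lists and the 7 marker lists were chosen with earlier results of these data known. Named genes are all members, at most 4 called genes of the largest change per list, every tested gene of the phosphatase and lysophospholipid receptor lists, the 3 nearest profiles of a member called at 2-fold or more, and marker genes. Sgpp2, Cers6, Cd69 and the neighbouring genes were named outside this rule after their values were seen. Alternatives were other pseudocounts, filters and scalings, a replicate block and each library left out, the last with the filter still set on all 6 libraries.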

Additional observations from a re-analysis of the deposited data

How the results depend on the processing

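Over up to 14 alternative settings for each of 39 genes, 517 values kept direction and side of the threshold, 15 calls were lost, 6 were gained and 5 values, all near 0, changed sign: Spns2 (0.04 without untreated replicate 2, in a range of -0.14 to 0.04) and Plpp2 (-0.02 with median-of-ratios scaling, and -0.07 to 0.04 with a library left out). With each library left out, 1113 to 2024 genes of the whole table were called higher (1181 without untreated replicate 1 and 1113 without untreated replicate 3) and 917 to 1926 lower (1130, 1125 and 917 without untreated replicates 1, 2 and 3), and the members called higher numbered 1 to 3, the pathway genes called higher 3 to 11. Pathway genes called higher also moved to 5 with no filter and to 14 when mitochondrial genes and the 20 most abundant ones were kept out of the scaling. That scaling shifted the median of tested genes to 0.0612 and the share of higher calls over all tested genes to 62.7%, in place of 52.0%.

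Replicates of the same number deviated together with r = 0.198, 0.153 and -0.0384, so the numbers were not taken to pair the samples. With a replicate block 2 members were called lower, the added one being Sgpl1 (adjusted p = 0.0471), 5 pathway genes were called higher, and Abca1 was called lower (-0.75, adjusted p = 0.017), making 2 lower of its list in place of 1. Plpp3 was called higher when the abundant genes were kept out of the scaling (adjusted p = 0.0357) and Lpar2 lower with quantile normalization (adjusted p = 0.0423). Levels below 1 TPM carry an unknown counting error.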
